A study of Canis lupus familiaris with 13 samples.

Results

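The 10 genes described here encode immune checkpoint receptors and ligands, and were taken as the rows of the deposited count table with the symbols PDCD1, CD274, PDCD1LG2, CTLA4, LAG3, HAVCR2, TIGIT, IDO1, CD80, and CD86. All 10 were present among the 43427 genes of the table, and all 10 were among the 20118 genes with enough counts to be tested. Levels are given as CPM, the counts of a gene relative to the total of its library, scaled by the trimmed mean of M values (TMM). Changes are given on the log2 scale.

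The RNA came from 13 biopsies of 4 naturally occurring tumors in 3 adult companion dogs, each injected intratumorally with IMAX. IMAX is a nanoparticle made of a polyethyleneimine–lithocholic acid conjugate (2E′), the cytotoxic drug paclitaxel, and a cyclic dinucleotide that activates the innate sensor STING. Dog RV, a spayed mixed-breed female, had a soft tissue sarcoma, dog CL, an intact female Shih Tzu, had a cranial and a caudal mammary tumor, and dog BM, a spayed female Great Pyrenees, had a mammary tumor. Each tumor was biopsied before treatment (4 libraries). The early group (4 libraries) held RV at 2 days after the second dose and the other tumors at 1 week. The late group (5 libraries) held RV at 2 weeks after the third dose (an injection site and an adjacent site), both CL tumors at 1 month, and BM at 3 weeks, both after the second dose. RV thus had a further dose between its early and late biopsies. No untreated tumor was sampled, so time since the first biopsy and treatment cannot be told apart. The biopsy times differed among the dogs, the sarcoma is a single tumor, both CL tumors share a host, and a tumor at a given time is a single biopsy, except RV late. A change within 1 tumor therefore has no replicate check.

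Immune checkpoints are receptor and ligand pairs that restrain T cells after activation. PD-1 (PDCD1) on T cells binds PD-L1 (CD274) and PD-L2 (PDCD1LG2) on myeloid cells, dendritic cells, and tumor cells. CTLA-4 competes with the costimulatory receptor CD28 for CD80 and CD86 on antigen-presenting cells, and TIGIT competes with CD226 for shared nectin-family ligands. LAG-3 binds MHC class II, and TIM-3 (HAVCR2) is found on T cells and also on macrophages and dendritic cells. IDO1 degrades tryptophan, which T cells need. CD274 and IDO1 are well-known interferon-induced genes, so the study question of how tumors respond to an innate agonist extends to this feedback arm.

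All 10 are protein-coding genes of the dog RefSeq assembly UU_Cfam_GSD_1.0. CD80 (23822928 to 23847156), CD86 (25890298 to 25952478), and TIGIT (19131089 to 19146839) lie on chromosome 33. CTLA4 lies on chromosome 37 (12505745 to 12511890), PDCD1 on chromosome 25 (51676302 to 51686322), LAG3 on chromosome 27 (7829072 to 7835123), HAVCR2 on chromosome 4 (53905760 to 53918797), and IDO1 on chromosome 16 (26131508 to 26146796). CD274 and PDCD1LG2 lie on chromosome 1.

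Total counts ranged from 16259854 to 27707651 before, from 14211531 to 27611423 early, and from 11622444 to 29931125 late. The spread left after fitting tumor and time group was wide, with a common biological coefficient of variation of 0.672. The T cell marker genes (14 genes) summed to 32.8 to 76.6 CPM before, 59.4 to 591 early, and 69.7 to 206 late, and the myeloid marker genes (13 genes) to 320 to 734, 1200 to 3425, and 368 to 1485 CPM. No gene of either list was at 0 in any library. The biopsies also differed in tissue. In the RV sarcoma, epidermis markers (9 genes) summed to 72.3 CPM before and 2914 CPM early, while stromal markers (8 genes) summed to 22218 and 2239 CPM. Epithelial markers (7 genes), which a mammary carcinoma should carry, summed to 3019 to 5014 CPM in CL cranial but to 305 to 705 CPM in CL caudal, and in BM to 3262 CPM before, 2155 early, and 193 late. The CL caudal and late BM biopsies thus held little epithelial RNA for their label. In bulk RNA, fewer cells of a type and less RNA per cell cannot be told apart.

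Early after treatment, the fitted log2 change of all 10 genes was above 0, with a median of 1.67 beside a median of 0.25 over all tested genes. No gene passed the adjusted threshold of 0.05 in the edgeR quasi-likelihood test with tumor as a block (Benjamini-Hochberg over all 20118 genes), a threshold that 0.00497% of all tested genes passed in either direction. DESeq2 called 2 of the 10, CD274 and PDCD1LG2, and 4.75% of all genes. At an unadjusted p under 0.05, 4 of the 10 were higher (PDCD1LG2, PDCD1, CD86, and CD274) and none was lower, beside 7.70% of all genes higher. Of the 10, 5 were higher in all 4 tumors (PDCD1, CD274, PDCD1LG2, CTLA4, and TIGIT), as were 10.8% of all genes.

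The change depended on the tumor. In CL cranial, all 10 genes were higher early and 9 of them by over 1 on the log2 scale, a size that 16.1% of all genes reached. In the RV sarcoma, 9 were higher and 7 were past that size, beside 39.3% of all genes. In BM, 9 were higher and 4 were past it, beside 19.1% of all genes. In CL caudal, 6 were higher and only LAG3 was past it, beside 29.2% of all genes, and CD80 was lower by over 1. The median change of the 10 genes was 3.08 in CL cranial, 2.05 in RV, 0.74 in BM, and 0.22 in CL caudal.

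**Figure D1:**
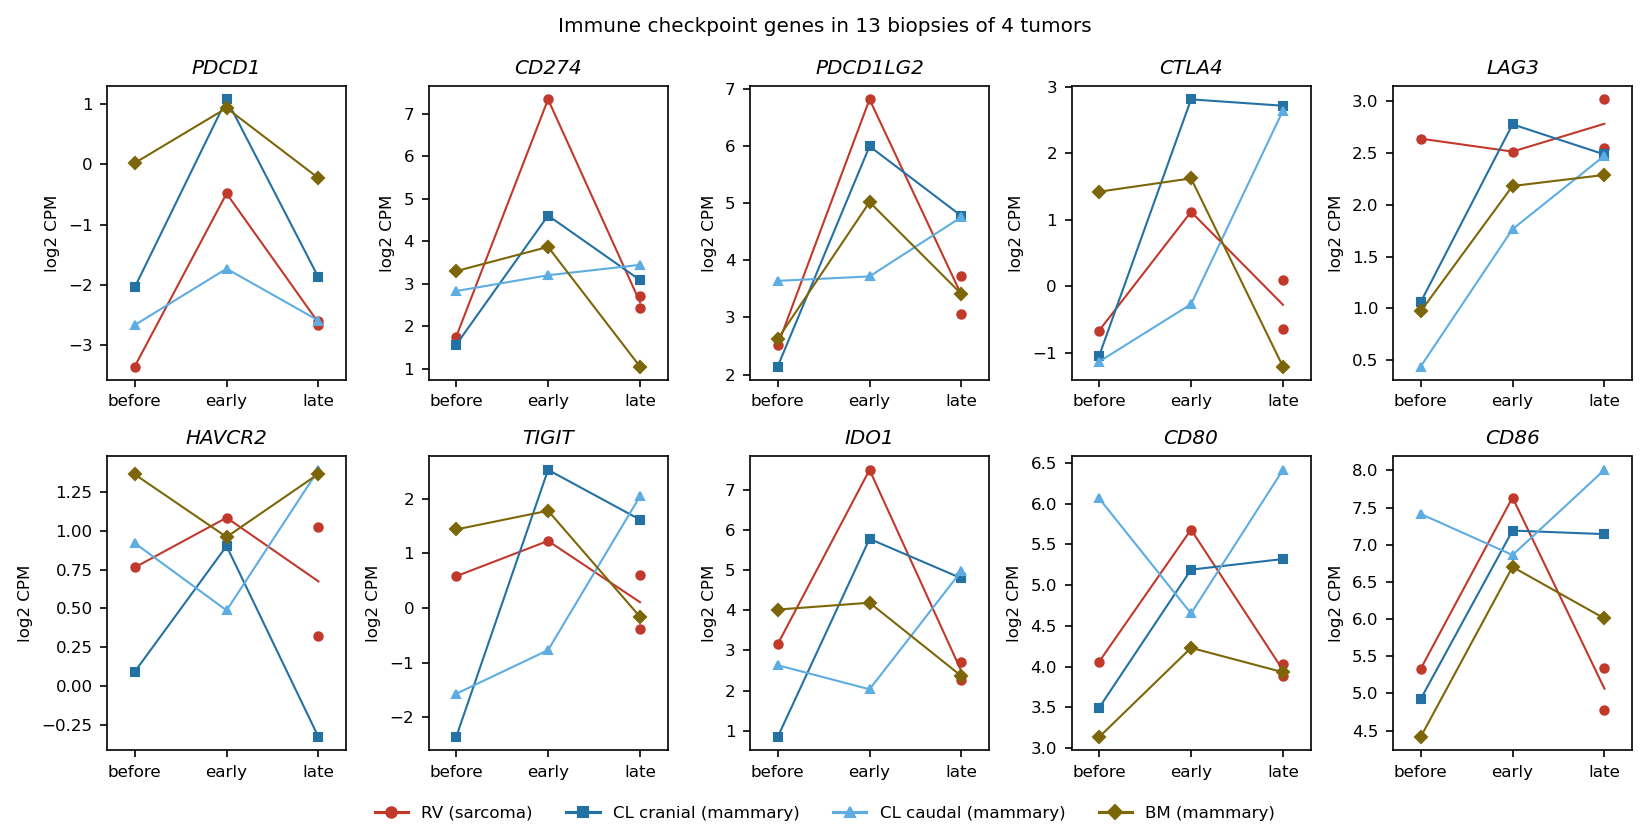
The level of each gene (log2 CPM, with its own vertical scale) in each of the 13 libraries, by time group. Each point is a library and each line joins the libraries of 1 tumor, through the mean of both late RV sites. PDCD1LG2 is the gene whose 4 early libraries all lie above its 4 libraries from before treatment.

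PDCD1, the gene of the receptor PD-1, was a low-count gene in these biopsies. Before treatment it had 0 counts in RV, 3 in the CL cranial tumor, 1 in the CL caudal tumor, and 33 in BM (0, 0.145, 0.0598, and 0.917 CPM). Early it had 11, 50, 5, and 51 counts (0.617, 2.01, 0.204, and 1.81 CPM). BM stood above the other tumors before treatment, and all 4 tumors were higher early. In RV, a library with 0 counts allows up to 3 counts, or 0.20 CPM. The early RV value of 0.617 CPM was 3.09-fold that bound. Counting error of the early library is not in that figure (95% range 0.308 to 1.10 CPM). The edgeR log2 change was 2.72 (SE 0.89, adjusted p = 0.304), and it lay between 2.17 and 3.03 with any 1 tumor or the early RV library left out, except without BM, when PDCD1 had too few counts to be tested.

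Late, PDCD1 had 1 count at each RV site, 18 in BM, and 2 and 1 in the cranial and caudal CL tumors (0.0678 and 0.0605 CPM in RV, then 0.756, 0.175, and 0.0682 CPM). Every tumor was lower late than early, and the late levels were near the level before treatment. PDCD1 was the only 1 of the 10 genes that was lower in all 4 tumors from early to late, which held for 17.4% of all genes. The edgeR log2 change from early to late was −2.52 (SE 0.82, adjusted p = 0.0914), and from before to late it was 0.20 (SE 0.85, adjusted p = 0.992). Counted against the T cell markers CD3D, CD3E, CD3G, CD2, and CD5 of the same library, PDCD1 was also lower late than early in 4 of 4 tumors, by a mean of −2.0 ± 0.95 (SD, n = 4) on the log2 scale. The exact two-sided sign-flip test gave p = 0.125, the smallest it can give with 4 tumors. In CL caudal the ratio rests on 5 counts early and 1 late, and the marker counts there were 618 early and 1036 late. A higher marker sum lowers the ratio by itself. In the other tumors the marker counts were lower late.

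CD274, the gene of PD-L1, gave the largest early difference in the RV biopsies. In the paper's histology of RV at the early time, no tumor cells were identified with certainty. Its diagnosis there was granulomatous to pyogranulomatous dermatitis, so the early RV value cannot be assigned to sarcoma cells. In RV it was at 3.27 CPM before, 161 CPM early, and 5.29 and 6.41 CPM at the late injection and adjacent sites. In CL cranial it was at 2.86, 24.2, and 8.39 CPM before, early, and late, and in CL caudal at 7.0, 9.08, and 10.8 CPM. In BM it was at 9.72, 14.5, and 1.97 CPM. All 4 tumors were higher early, by 5.59 in RV, 3.04 in CL cranial, 0.57 in BM, and 0.37 in CL caudal on the log2 scale, so RV and CL cranial stood apart from the other two.

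The edgeR log2 change of CD274 was 2.61 early (SE 1.0, adjusted p = 0.389) and rested in large part on RV: it was 1.23 without that tumor and 1.36 without its early library, a library chosen for this check after its values were seen. DESeq2 called it (adjusted p = 0.0418). In the edgeR test of the early sarcoma change against the mammary change, CD274 differed by 4.40 (SE 1.48, adjusted p = 0.123), the only 1 of the 10 genes with an unadjusted p under 0.05, beside 16.7% of all genes higher at that level. No gene passed the adjusted threshold in that fit (0% of all genes). DESeq2 called CD274 (adjusted p = 0.0122) and 17.1% of all genes, so a call of 1 in 10 is not above the share over all genes. The epidermis markers also moved with CD274 in RV (72.3 to 2914 CPM), as did the myeloid sum (426 to 2018 CPM) and, in the other direction, the stromal sum. Their part in the result was not tested. The sarcoma was also the only tumor biopsied at 2 days, so sarcoma, biopsy day, and the tissue of the early RV biopsy cannot be told apart. From early to late, CD274 was lower by −2.68 (SE 0.88, adjusted p = 0.0960), and its late level was on both sides of its level before treatment, lower in BM and higher in the other 3 tumors.

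PDCD1LG2, the gene of PD-L2, was the gene of the 10 with the largest early change. It was at 5.6 CPM in RV, 4.31 in the CL cranial tumor, 12.4 in the CL caudal tumor, and 6.06 in BM before treatment, and at 113, 63.9, 13.1, and 32.4 CPM early. Late, it was at 13.1 and 8.28 CPM in RV, 27.4 in the CL cranial tumor, 27.0 in the CL caudal tumor, and 10.5 in BM. It was the only 1 of the 10 whose early libraries all lay above all libraries from before treatment, as for 2.71% of all genes, although CL caudal early and CL caudal before were close. The edgeR log2 change was 2.98 early (SE 0.73, adjusted p = 0.169), and between 2.15 and 3.57 with any 1 tumor or the early RV library left out. DESeq2 called it (adjusted p = 0.00126).

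PDCD1LG2 remained above its first biopsy in all 4 tumors late, by 0.88 in RV, 2.64 in the CL cranial tumor, 1.12 in the CL caudal tumor, and 0.79 in BM. The edgeR late change was 1.22 (SE 0.64, adjusted p = 0.973). The genes of both PD-1 ligands are neighbors on chromosome 1 of the RefSeq assembly UU_Cfam_GSD_1.0 (CD274 at 94260510 to 94278519 and PDCD1LG2 at 94306830 to 94395104), and their tumor-centered log2 CPM had a Pearson r of 0.86 over the 13 libraries. This r is a description over libraries that share tumors and scaling.

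CTLA4, TIGIT, and IDO1 were high late in both CL tumors and not in RV or BM. CTLA4, the inhibitory receptor for CD80 and CD86, was at 0.533 CPM in RV, 0.387 in the CL cranial tumor, 0.359 in the CL caudal tumor, and 2.58 in BM before treatment. Early it was at 2.08, 6.92, 0.733, and 2.98 CPM. Late it was at 0.543 and 0.968 CPM in RV, 6.47 in the CL cranial tumor, 6.14 in the CL caudal tumor, and 0.336 in BM. Both CL tumors thus ended above every level from before treatment. BM ended below its own level, at 8 counts, and within counting error of the other 3 tumors before treatment (6 to 8 counts). The CL caudal value was reached at 1 month and not at 1 week, whereas CL cranial was at that level at both times.

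TIGIT, an inhibitory receptor of T and natural killer cells, was at 1.40 CPM in RV, 0.0968 in the CL cranial tumor, 0.239 in the CL caudal tumor, and 2.61 in BM before treatment. Early it was at 2.25, 5.67, 0.489, and 3.34 CPM, and late at 1.42 and 0.665 CPM in RV, 2.97 in the CL cranial tumor, 4.02 in the CL caudal tumor, and 0.798 in BM. The late change was 3.98 in CL cranial and 3.61 in CL caudal, against −0.47 in RV and −1.60 in BM. The values before treatment in the CL tumors rest on 2 and 4 counts, so the size of these changes is uncertain.

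IDO1, the tryptophan-degrading enzyme, was at 8.80 CPM in RV, 1.69 in the CL cranial tumor, 6.10 in the CL caudal tumor, and 16.1 in BM before treatment. Early it was at 181, 54.8, 3.99, and 18.1 CPM, and late at 4.68 and 6.41 CPM in RV, 27.7 in the CL cranial tumor, 31.4 in the CL caudal tumor, and 5.04 in BM. RV and CL cranial were high early, and CL cranial and CL caudal were high late. The early edgeR change was 2.71 (SE 1.31, adjusted p = 0.476) and fell to 0.90 when the early RV library was left out and 1.34 without the RV tumor.

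The edgeR late change was 1.53 for CTLA4 (SE 1.22), 1.10 for TIGIT (SE 1.19), and 0.81 for IDO1 (SE 1.22), with adjusted p-values of 0.973, 0.973, and 0.976. These values rest on the CL tumors. Without CL caudal the late change was 0.39 for CTLA4, 0.05 for TIGIT, and −0.03 for IDO1, and without CL cranial it was 0.81, 0.57, and −0.15. The T cell marker sum moved with them in dog CL, from 44.7 to 206 CPM in CL cranial and from 32.8 to 138 CPM in CL caudal, before to late. In BM it was 74.6 CPM before and 89.8 CPM late, while CTLA4 and TIGIT were lower. Relative to CD3D, CD3E, CD3G, CD2, and CD5 counts, CTLA4 was still higher late in both CL tumors (1.82 cranial and 1.42 caudal) and lower in BM (−3.67), with 0.36 in RV.

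**Figure D2:**
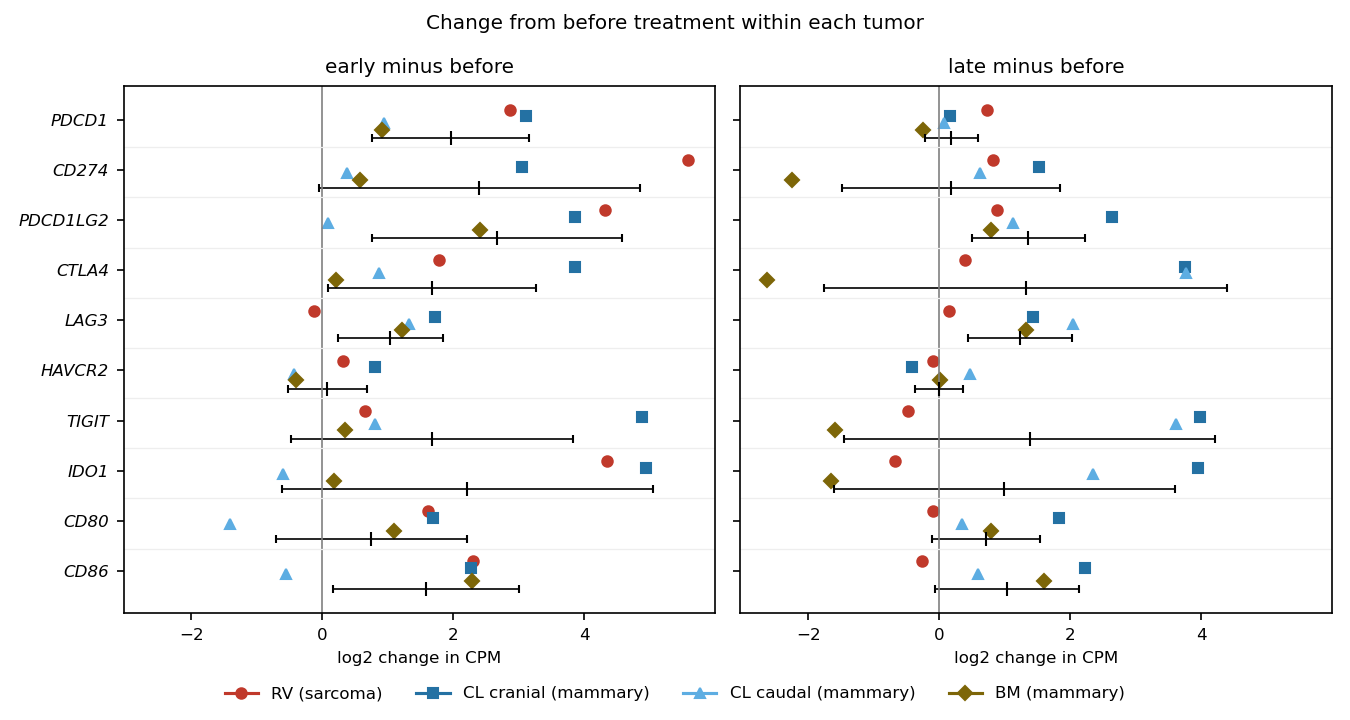
The log2 change in CPM from before treatment to the early (left) and late (right) biopsies for each gene, with 1 point per tumor and the mean with its SD over 4 tumors as a black bar. Early, PDCD1, CD274, PDCD1LG2, CTLA4, and TIGIT lie above 0 in all 4 tumors. Late, both CL tumors lie above 0 and BM below 0 for CTLA4, TIGIT, and IDO1.

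LAG3, the MHC class II-binding receptor of activated T cells, was the gene with the most even late values. It was at 6.13 CPM in RV, 1.98 in the CL cranial tumor, 1.26 in the CL caudal tumor, and 1.86 in BM before treatment. Early it was at 5.61, 6.76, 3.30, and 4.44 CPM, and late at 8.0 and 5.74 CPM in RV, 5.51 in the CL cranial tumor, 5.46 in the CL caudal tumor, and 4.79 in BM. The 3 mammary tumors were low before treatment and closer to the sarcoma late, while the sarcoma differed by −0.13 early and 0.14 late. The log2 change was 1.01 early (SE 0.54, adjusted p = 0.513) and 1.15 late (SE 0.52, adjusted p = 0.973), and late minus early was 0.14 (SE 0.51). Relative to the T cell markers, LAG3 changed by −0.43 ± 0.67 early and −0.13 ± 0.57 late (SD, n = 4 tumors), less than its spread.

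HAVCR2, the gene of TIM-3, was the gene with the smallest early change of the 10. It was at 1.60 CPM in RV, 0.968 in the CL cranial tumor, 1.79 in the CL caudal tumor, and 2.47 in BM before treatment, at 2.02, 1.77, 1.30, and 1.85 CPM early, and at 1.15 and 1.94 (RV), 0.699, 2.52, and 2.48 CPM late. The groups overlapped throughout. The log2 change was 0.14 early (SE 0.61, adjusted p = 0.931) and 0.03 late (SE 0.58, adjusted p = 0.998), and its sign differed among settings.

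The myeloid marker sum was higher early in every tumor, so HAVCR2 per myeloid marker count was lower. Against the summed counts of CD68, CD163, CSF1R, AIF1, CD14, FCER1G, TYROBP, C1QA, C1QB, and C1QC, HAVCR2 had 4.36 counts per 1000 in RV before and 1.32 early, 1.76 and 0.821 in CL cranial, 3.07 and 1.27 in CL caudal, and 9.25 and 0.572 in BM. The mean log2 change was −2.03 ± 1.34 (SD, n = 4), lower in 4 of 4 tumors. With CSF1R alone or the pan-leukocyte gene PTPRC as the denominator it was −2.08 and −1.69. Late minus early, the ratio was higher in 4 of 4 tumors, by 1.28 ± 0.71. Both exact two-sided sign-flip tests gave p = 0.125, the smallest possible. Any gene with an unchanged level would also fall early against the higher marker sum, so these ratios and tests do not single out HAVCR2.

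CD80 and CD86, the ligands shared by CTLA-4 and CD28, moved in the same direction in each tumor early but by different amounts. CD86 was at 40.1 CPM in RV, 30.3 in the CL cranial tumor, 171 in the CL caudal tumor, and 21.2 in BM before treatment, and at 199, 146, 116, and 104 CPM early. Late it was at 40.6 and 27.5 CPM in RV, 141 in the CL cranial tumor, 257 in the CL caudal tumor, and 64.3 in BM. RV, CL cranial, and BM were higher early by 2.31, 2.27, and 2.29, and CL caudal, which began highest, was lower by −0.55. The edgeR log2 change was 1.74 early (SE 0.61, adjusted p = 0.350) and 2.27 without CL caudal, and it was 0.89 late (SE 0.56, adjusted p = 0.973).

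CD80 was at 16.6 CPM in RV, 11.2 in the CL cranial tumor, 66.8 in the CL caudal tumor, and 8.70 in BM before treatment, and at 51.2, 36.4, 25.1, and 18.7 CPM early. Late it was at 14.7 and 16.2 CPM in RV, 39.8 in the CL cranial tumor, 85.1 in the CL caudal tumor, and 15.2 in BM. CL caudal was lower early (−1.41) and the other 3 tumors were higher (1.09 to 1.69). The edgeR log2 change was 0.93 early (SE 0.56, adjusted p = 0.543) and 0.58 late (SE 0.52, adjusted p = 0.973). Relative to the myeloid marker counts, CD80 was lower early in 4 of 4 tumors, by −1.36 ± 1.17 (SD, n = 4, exact sign-flip p = 0.125). CD86 was higher in 2 and lower in 2 (−0.53 ± 0.93). The marker counts were higher early in every tumor, so any gene that rose less than they did is lower in this ratio.

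The ratio of CD80 to CD86 counts within a library does not depend on library size and had the smallest SD across tumors of the early ratios computed. Before treatment its log2 value was −1.27 in RV, −1.43 in the CL cranial tumor, −1.35 in the CL caudal tumor, and −1.29 in BM. Early it was −1.96, −2.0, −2.21, and −2.48, and late −1.46 and −0.76 (RV), −1.82, −1.59, and −2.08. The early values all lay below all values from before treatment, including in CL caudal, where both genes were lower. How common such a separation is among the ratios of other gene pairs was not computed. The change was −0.83 ± 0.27 early (SD, n = 4, lower in 4 of 4), −0.32 ± 0.40 late (lower in 3 of 4), and 0.51 ± 0.29 from early to late (higher in 4 of 4). The exact two-sided sign-flip test gave p = 0.125, 0.25, and 0.125, and 4 tumors cannot give a p below 0.125.

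The pairs of inhibitory and activating receptors gave no common direction. The log2 ratio of CTLA4 to CD28 changed early by −1.30 in RV, 1.61 in the CL cranial tumor, −1.10 in the CL caudal tumor, and 0.00 in BM, a mean of −0.20 ± 1.34 (SD, n = 4). The ratio of TIGIT to CD226 changed by −1.0, 2.86, 0.97, and −0.24, a mean of 0.65 ± 1.68. Both ratios were higher in CL cranial at both times. Late, both were higher in CL caudal (0.82 and 1.46) and lower in RV (−0.78 and −0.72) and BM (−2.23 and −1.25).

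**Figure D3:**
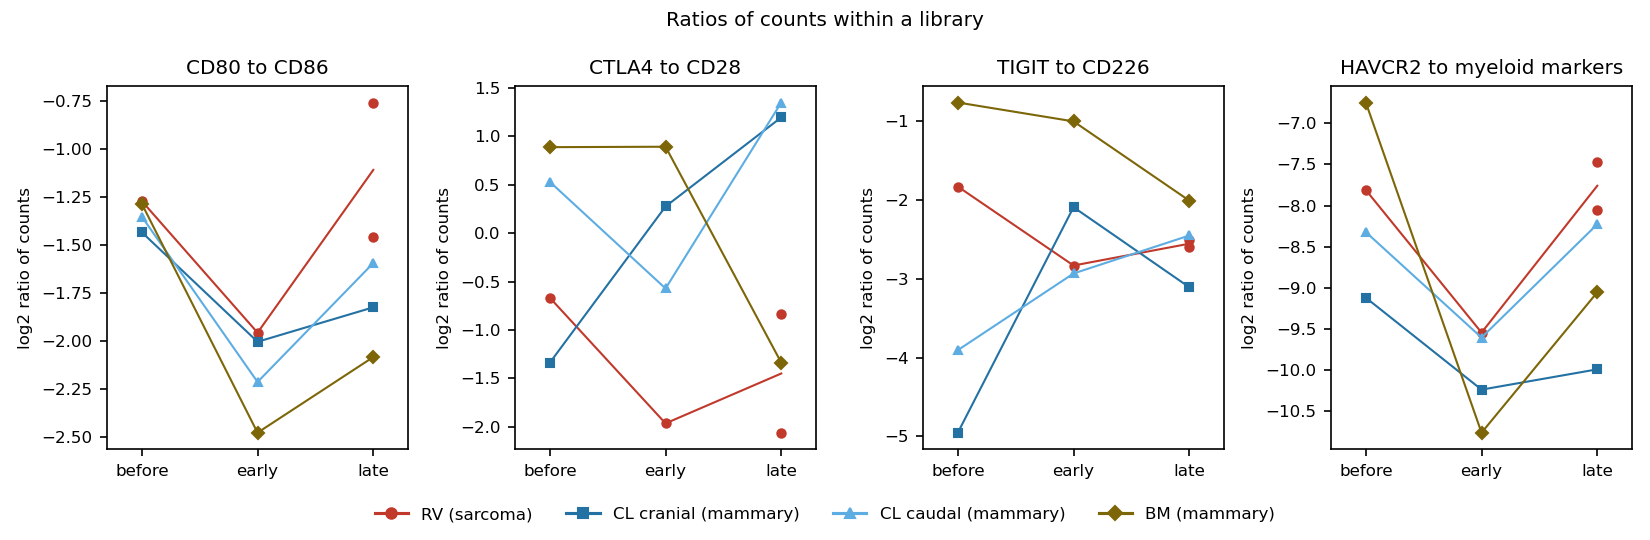
The log2 ratio of counts within each library for CD80 to CD86, CTLA4 to CD28, TIGIT to CD226, and HAVCR2 to 10 summed myeloid marker genes. Points are libraries and lines join the libraries of a tumor. The CD80 to CD86 and HAVCR2 ratios are lower early in all 4 tumors, and the receptor pairs show no shared direction. The myeloid marker sum was itself higher early in every tumor.

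**Figure D4:**
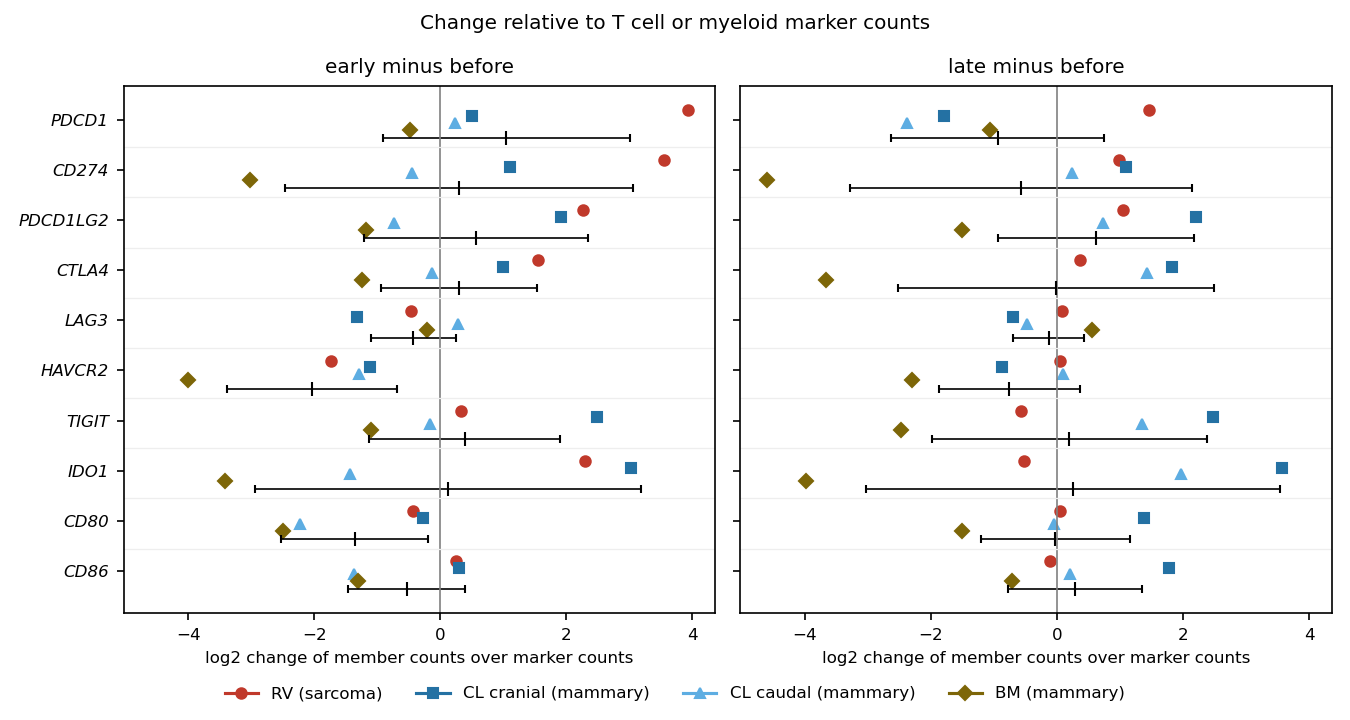
The log2 change of each gene's counts over marker gene counts of the same library, T cell markers for PDCD1, CTLA4, LAG3, and TIGIT and myeloid markers for the other 6 genes. Points are tumors and black bars are the mean and SD over 4 tumors. HAVCR2 and CD80 lie below 0 in all 4 tumors early, and the other genes lie on both sides of 0. The myeloid marker counts were themselves higher early in every tumor.

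Late, the median change of the 10 genes was 0.85, beside −0.05 over all genes, and 9 of 10 fitted changes were above 0. No gene passed the adjusted threshold (0% of all genes did, none by edgeR). At an unadjusted p under 0.05, 1 gene (LAG3) was higher, beside 1.28% of all genes, and DESeq2 called none (0.0348% of all genes). PDCD1LG2 and LAG3 were higher in all 4 tumors (2 of 10), beside 7.13% of all genes. Changes above 1 on the log2 scale were seen for 8 genes in CL cranial, 5 in CL caudal, 2 in BM, and 0 in RV, beside 20.2%, 7.97%, 21.7%, and 6.15% of all genes. In BM, 4 genes (CD274, CTLA4, TIGIT, and IDO1) were lower by over 1, beside 29.1% of all genes. BM late was also the biopsy with the fewest epithelial counts among the mammary tumors and the highest stromal sum (101768 CPM), and the part of these in the values was not tested.

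From early to late, 3 genes were lower at an unadjusted p under 0.05 (PDCD1, CD274, and PDCD1LG2), the PD-1 receptor and both of its ligands, beside 17.7% of all genes lower. None passed the adjusted threshold in edgeR, which 0.00994% of all genes did. DESeq2 called all 3 lower, and 16.9% of all genes, so by either tool 3 of 10 is not far from the share over all genes. The median of the 10 genes was −0.60, beside −0.35 over all genes. CL caudal went the other way, with a median of 1.09 and 9 of its 10 genes higher late than early, the exception being PDCD1. The late RV sites differed by up to 1.0 on the log2 scale (TIGIT, higher at the injection site) and by 0.07 at the least (PDCD1).

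Other checkpoint receptors and costimulatory partners were mostly higher early: 14 of 15 tested genes had a change above 0, with a median of 1.66. The median over all genes was 0.25. Of the 15, 4 were higher at an unadjusted p under 0.05 and 7 in all 4 tumors, beside 7.70% and 10.8% of all genes. The genes named from this list and the next ones were chosen because all 4 tumors moved the same way, so that agreement is not a result. VSIR, the gene of the inhibitory receptor VISTA on myeloid cells, was the most even of these. It was higher by 2.0 in RV, 2.39 in the CL cranial tumor, 2.59 in the CL caudal tumor, and 2.49 in BM (edgeR 2.38, SE 0.34, adjusted p = 0.0930), and late it was at 0.12 (SE 0.32). SIRPA, the phagocyte receptor for CD47, changed by 2.18 (SE 0.60, adjusted p = 0.225), and CD28, the costimulatory receptor, by 1.98 (SE 0.81, adjusted p = 0.422).

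Among other checkpoint ligands, 14 of 16 tested genes were above 0 early (median 0.74). At an unadjusted p under 0.05, 5 were higher, beside 7.70% of all genes. LGALS9 encodes galectin-9, a ligand of TIM-3, and was higher in all 4 tumors by 1.68 to 2.74 (edgeR 2.36, SE 0.36, adjusted p = 0.110), whereas HAVCR2 itself was at 0.14. TNFRSF14, the gene of HVEM, a ligand of BTLA, was higher in all 4 tumors both early (1.90, SE 0.49, adjusted p = 0.192) and late (1.40, SE 0.46, adjusted p = 0.973). ICOSLG, the ligand of the costimulatory receptor ICOS, changed by 1.67 early (SE 0.54, adjusted p = 0.299).

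Genes of the interferon gamma route were also mostly higher early, 13 of 14 with a median of 1.46. At an unadjusted p under 0.05, 7 were higher, beside 7.70% of all genes. The list holds signaling genes and also induced genes such as CIITA and TAP1, and which interferon acted was not tested. IRF1, the transcription factor that drives CD274 and IDO1, changed by 2.10 (SE 0.47, adjusted p = 0.154), CIITA, the regulator of MHC class II, by 2.24 (SE 0.64, adjusted p = 0.242), and TAP1, a peptide transporter, by 1.99 (SE 0.47, adjusted p = 0.164). Of the 14, 4 were higher in all 4 tumors, beside 10.8% of all genes. In CL caudal the median of this list was 0.38, beside 0.37 for CD274 and −0.60 for IDO1. IFNG itself had 0 to 32 counts before and 2 to 62 early, and it was higher in 3 of 4 tumors. In BM it was lower, at 32 counts before and 2 early, while the median of this list in BM was 0.87. Late, the median of this list was 0.11.

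In the tryptophan route, 8 of 9 tested genes were above 0 early (median 0.90, 3 at an unadjusted p under 0.05), and HAAO, an enzyme further down the pathway, changed by 2.23 (SE 0.65, adjusted p = 0.257). Among the factors of inhibitory signaling and T cell exhaustion, 12 of 15 were above 0 early (median 1.33, 5 at an unadjusted p under 0.05). For both lists, the share of all genes higher at that level was 7.70%. TBX21 (2.95, SE 0.93, adjusted p = 0.290), BATF (2.66, SE 0.61, adjusted p = 0.154), and EOMES (2.44, SE 0.70, adjusted p = 0.242) are transcription factors of effector and exhausted lymphocytes. Of the 15 factors, 4 were higher in all 4 tumors early and 3 late, beside 10.8% and 7.13% of all genes. The early median in CL caudal was −0.09. BATF and EOMES changed late by 1.35 (SE 0.56) and 1.68 (SE 0.67), with adjusted p = 0.973 for both. No gene of these 5 lists passed the adjusted threshold in edgeR early or late. DESeq2 called 2 of the other receptors, 4 of the other ligands, 5 of the interferon gamma route, 2 of the tryptophan route, and 4 of the exhaustion factors early, all higher, beside 4.75% of all genes, and none late.

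T cell and myeloid markers were also higher early, but not in step with the 10 genes in every tumor. In CL caudal the median early change was 1.20 for the T cell markers, 1.46 for the myeloid markers, and 0.22 for the 10 genes. In BM these medians were 1.04, 2.83, and 0.74. All 13 myeloid markers were above 0 early (median 1.99, 12 at an unadjusted p under 0.05), as were all 14 T cell markers (median 1.46, 6 at that level). Of all genes, 7.70% were higher at that level. edgeR called none of them at the adjusted threshold, and DESeq2 called 8 and 5, beside 4.75% of all genes. CD163, a macrophage scavenger receptor, changed by 2.84 (SE 0.39, adjusted p = 0.0930), and CD3E by 1.97 (SE 0.61, adjusted p = 0.281). In RV, the median T cell marker change was 0.16 early and the larger sum came mostly from CD4, at up to 516 CPM, a gene that canine neutrophils are also known to express. CD4 was not among the T cell markers used as a denominator. FOXP3, the transcription factor of regulatory T cells, was low, with 1 to 36 counts before, 2 to 45 early, and 0 to 16 late, and its late change was −0.73 (SE 0.91, adjusted p = 0.976). Of the 5 regulatory T cell markers, 3 were above 0 early (median 0.74) and 1 late (median −0.21). The 1 above 0 late was CCR8 (1.90, SE 1.03, adjusted p = 0.973), named after its values were seen.

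The genes whose tumor-centered log2 CPM was most like each of the 10 over 13 libraries differed among them. For CD274 they were CA6, HERC6, and RSAD2 (r = 0.99, 0.98, and 0.98), the last of these an interferon-induced antiviral gene. For LAG3 they were GZMA, LCK, and FASLG (r = 0.95 each), for CTLA4 CLIC5, ICOS, and MS4A1 (0.95, 0.94, and 0.93), and for TIGIT MS4A1, IKZF3, and RASGRP1 (0.96 each). For IDO1 they included PRKCB and SLAMF6 (0.96 each), and for CD80 they were CD69, GGH, and B2M (0.99, 0.97, and 0.96). For CD86 they were C20H19orf38, GIMAP2, and TIMD4 (0.99, 0.98, and 0.98), and for PDCD1LG2 LOC111096980, TFEC, and GIMAP4 (0.99, 0.99, and 0.98). For PDCD1 they were LOC106559977, CEACAM28, and RINL (0.97, 0.97, and 0.96).

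HAVCR2 had the weakest matches (LOC100687594, GNA13, and NUP153 at 0.79, 0.78, and 0.77). Between the 10 genes, the highest r were those of PDCD1LG2 with CD86 and CTLA4 with TIGIT (0.93 each) and CD80 with CD86 (0.92), and the lowest was that of LAG3 with HAVCR2 (0.12). These values describe libraries that share tumors, scaling, and cell content, and no test was made of them.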

How the data were processed

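The authors isolated RNA, had it sequenced by a provider as strand-specific libraries, and used Strand NGS for alignment to CanFam4.0. The deposited values are raw counts, with 1 row per gene symbol. The counting rule and annotation release are not given in the sources used here. Time groups and tumors came from the sample labels. The dogs and doses came from the study's methods.

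Counts were fitted with edgeR 4.0.16 in R 4.3.3 (TMM scaling, filterByExpr with a minimum count of 10, robust quasi-likelihood fit), with tumor and time group as factors over all 13 libraries (7 residual degrees of freedom). A second fit added a sarcoma-by-time term (5 residual degrees of freedom). Adjusted p-values are Benjamini-Hochberg values over 20118 genes, and the threshold was 0.05. Libraries were paired as biopsies of 1 tumor. Their deviations from the mean of each time group correlated at an average of 0.23 between before and early, 0.59 between before and late, and 0.19 between early and late, but this was below 0 for at least 1 pair with an early library (lowest −0.10). Changes within a tumor are differences of log2 CPM with a prior count of 2, with late RV as the mean of its 2 sites, and were tested over 4 tumors by an exact sign-flip test. Ratios used 0.5 added to the count of each gene, but not to marker sums.

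The 10 genes and the gene lists were chosen with earlier results of these data known. The genes named beside the 10 were, per list, up to 3 with the largest early and up to 3 with the largest late change, where all 4 tumors moved the same way, the denominators and counterparts of the ratios, and the 3 nearest genes by correlation, of which 1 for IDO1 is not reported here. IFNG was named after its values were seen, as were CD4 and PTPRC. Alternatives were DESeq2 1.42.0 as tool or size factors, no filter, no tumor block or a dog block, fewer libraries, and each tumor left out.

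Each pair of libraries differed by more than sampling noise (a chi-square of 49.4 or more per degree of freedom). A count of 0 allows up to 3 counts, for counting error only, since reads are not independent molecules. Data were simulated for the early comparison with 20118 genes. A 4-fold change was recovered in 0 of 200 genes at a coefficient of variation of 0.672 and in 200 of 200 at 0.2. Every simulated gene had the same coefficient of variation and no difference between tumors, unlike the genes of these libraries. Gene positions are from RefSeq on UU_Cfam_GSD_1.0. P-values measure how unevenly these tumors changed, and not a spread among independent dogs. Both CL tumors came from the same dog, and in the edgeR fit both late RV sites entered as separate libraries.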

Additional observations from a re-analysis of the deposited data

Results flagged for a closer look

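In 3 results the sarcoma went against all 3 mammary tumors, and the late differences were not tested. LAG3 was lower in RV early (−0.13) and higher in the mammary tumors (1.21 to 1.72). In the mean of the late RV sites, CD80 (−0.10 against 0.35 to 1.82) and CD86 (−0.26 against 0.59 to 2.22) were lower. CD86 was at 40.6 CPM at the injection site and 27.5 at the adjacent site, beside 40.1 before. For LAG3 and CD80, the 95% counting ranges of the RV libraries overlapped, so their RV differences lay within counting error. In the test of the early sarcoma change against the mammary change, LAG3 differed by −1.60 (SE 1.04, edgeR adjusted p = 0.364).

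For TIGIT and IDO1 late, both tumors of dog CL went against the tumors of the other dogs, also untested. TIGIT was higher by 3.98 in CL cranial and 3.61 in CL caudal and lower in BM (−1.60) and in the mean of the RV sites (−0.47). At the RV injection site TIGIT was at 1.42 CPM, beside 1.40 before. IDO1 was higher by 3.96 and 2.35 and lower in RV (−0.67) and BM (−1.66). The CL tumors were also the only ones biopsied at 1 month, so dog and time cannot be told apart. A check of the gap to the nearest library against the range of the group flagged no library in 30 group and gene checks. Libraries that it did not flag could still stand apart. CTLA4 before treatment was at 2.58 CPM in BM and at 0.359 to 0.533 CPM in the other tumors. CD274 early was at 161 CPM in RV and at 9.08 to 24.2 CPM in the other tumors.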

How the results depend on the processing

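With the common coefficient of variation of 0.672 given to every gene, a simulated 4-fold change gave no adjusted call. Genes were not simulated at their own spread, so this does not show what was detectable for each of them. Low counts further limit PDCD1, TIGIT, and CTLA4. edgeR called none of the 10 genes early, late, or from early to late, under DESeq2 size factors, without the low-count filter, without the replicate block, with dog as the block, or with any tumor left out. DESeq2 in place of edgeR called 2 early (CD274 and PDCD1LG2), 3 from early to late, and 1 (CD274) for sarcoma against mammary, which was also 1 with no filter (adjusted p = 0.0382), and the cause was not tested. DESeq2 called 4.75%, 16.9% (lower), and 17.1% of all genes in these comparisons, and the fit with no filter called 4.27%. The median early change of the 10 genes was 1.56 without the block, and leaving out a tumor or the early RV library gave 1.18 to 1.92 early and 0.33 to 1.37 late. The median over all genes moved from 0.25 to 0.58 early without the filter and to 0.01 without the block.

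Late changes near 0 turned direction, with no call in either direction. PDCD1 was −0.32 without the replicate block and −0.0425 to 0.27 with a tumor or library left out. CD274 was 0.20 without the block, 0.28 with only the libraries of the 2 time points, 0.0915 with RV sites summed, 0.0722 and 0.103 with the injection or adjacent site only, and −0.66 to 0.81 with a tumor or library left out. HAVCR2 was −0.0161 with DESeq2 size factors, −0.0128 with no filter, −0.0480 with 2 time points, −0.00650 with DESeq2, −0.0422 with the injection site only, and −0.12 to 0.0908 with a tumor or library left out, and early it was −0.16 to 0.29. IDO1 was −0.15 to 1.80. PDCD1 had too few counts to be tested without BM, and late with only 2 time points.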

Other observations

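Other antigen-presenting and lymphoid markers followed a similar course. All 8 tested dendritic cell markers were above 0 early (median 1.55), and 3 had an unadjusted p under 0.05, beside 7.70% of all genes higher. XCR1, the chemokine receptor of cross-presenting dendritic cells, changed by 1.82 in RV, 1.15 and 3.24 in the CL tumors, and 1.86 in BM (edgeR 2.02, SE 0.76, adjusted p = 0.384). CCR7, which guides dendritic cells to lymph nodes, changed by 1.82 (SE 0.93, adjusted p = 0.501). No dendritic cell marker passed the adjusted threshold in edgeR, and DESeq2 called 2 early, beside 4.75% of all genes.

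B cell markers separated dog CL from the others late. The median change of the 5 tested genes was 2.31 in CL cranial and 3.0 in CL caudal, against −0.40 in RV and −1.86 in BM. In CL caudal before treatment these genes summed to 1.67 CPM, with 1 gene at 0. CD79A had as few as 2 counts in a library from before treatment, so the size of these changes is uncertain. CD79A, part of the B cell receptor, changed late by 0.45 in RV, 2.31 and 3.10 in the CL tumors, and 0.81 in BM (edgeR 1.70, SE 0.70, adjusted p = 0.973). Neither tool called a B cell marker early or late. At each time, 1 of the 5 was higher at an unadjusted p under 0.05, beside 7.70% of all genes early and 1.28% late.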
